A study of Mus musculus with 10 samples.

Results

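The 10 genes Hspa1a, Hspa1b, Hspa8, Hsph1, Dnajb1, Dnaja1, Hsp90aa1, Hsp90ab1, Hspd1 and Hspe1 encode the main heat shock chaperones of the cytosol and the mitochondrion. They were chosen by name, and a gene was measured where the probe table gave it a probe set (a group of array probes read as 1 value) with 1 gene symbol. This held for 8 of the 10, among 22180 genes measured in all. Hsp90ab1 was not analysed here, and Dnaja1 was matched only by a probe set that the table also gives to the microRNA gene Mir207.

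The arrays measured RNA from T helper cells, the CD4+ lymphocytes that direct other immune cells, taken from spleens of wild-type female Balb/c mice aged 10 to 14 weeks. Every culture was stimulated through the antigen receptor with anti-CD3 antibody at 4 µg/ml and through the costimulatory receptor CD28 with antibody at 30 ng/ml. Th0 controls (n = 3) had nothing further. IL-4 at 100 ng/ml was added for Th2 (n = 3), and Th17 cultures (n = 4) received 20 ng/ml of IL-6, 10 ng/ml of IL-23 and 5 ng/ml of TGFβ. Th2 and Th17 cultures, but not Th0, also held an antibody to IFNγ (10 µg/ml), so that antibody and the polarising cytokines cannot be told apart in a comparison with Th0. Medium was renewed at 72 h, and no source used here gives the time of harvest or describes a sort of the cells after culture. Replicates are called biological in the titles, but separate animals are not stated. A p-value here therefore sets a difference only against the spread among these samples, which may be partly technical.

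Chaperones bind unfolded or newly made proteins and help them fold. The HSP70 proteins (Hspa1a, Hspa1b, Hspa8) do so in cycles of ATP hydrolysis that J-domain proteins such as Dnajb1 start and that Hsph1, an HSP110 protein, restarts by releasing ADP. HSP90 proteins mature kinases and steroid receptors, and the Hspd1 and Hspe1 proteins form the barrel and lid of the mitochondrial chaperonin. Under stress the transcription factor HSF1 binds heat shock elements, which are GAA triplets in alternating orientation, and switches on the inducible genes, of which Hspa1a and Hspa1b are the classic examples. Hspa8, in contrast, is the constitutive HSP70 of most cells, and stimulation of T cells is known to raise several chaperones without heat.

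Because the chaperones that varied most are known HSF1 targets, the heat shock element letters before their starts are shown here. RefSeq's promoter table (GRCm38.p6) held 7 of the 10 genes, and the 250 bases before each listed start were searched for GAANNTTC and TTCNNGAA. Each of these reads the same on both strands and holds 2 alternating triplets. Several genes have more than 1 listed start. Such a match lay in 7 of the 12 promoters of these genes and in 12.8% of all 32851 promoters of that length. The 7 are not all separate sites. The listed starts of Hsph1 take in the same match, Hspe1 and Hspd1 share theirs, and Hspa1a and Hspa1b are near-identical copies. By gene, 6 of the 7 had it before at least 1 start, the exception being Dnajb1. Hspa1b had the widest range of the measured chaperones on these arrays. It has the following 250 bases before its start (chr17:34959239-34959488, minus strand), with the match in capitals.
Hspa1b: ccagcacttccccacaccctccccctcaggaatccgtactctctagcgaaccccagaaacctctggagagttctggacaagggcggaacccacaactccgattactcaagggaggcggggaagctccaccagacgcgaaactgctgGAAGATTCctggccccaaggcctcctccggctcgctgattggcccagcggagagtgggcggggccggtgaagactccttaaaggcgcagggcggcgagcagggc

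The same stretch of Hspa1a differed at 3 of the 250 bases, T44C, C47T and G249T, where the first letter is the Hspa1b base, the last the Hspa1a base, and positions count from 1 at the 5′ end of the sequence above. None of the 3 lies in the match. The 30 bases around the matches of the other measured genes are given to compare their spacing, again with the matched letters in capitals.
Hspa1a (chr17:34972242-34972271, minus strand): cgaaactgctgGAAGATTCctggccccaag
Hsph1 (chr5:149636351-149636380, minus strand): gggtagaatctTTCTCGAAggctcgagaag
Hspe1 (chr1:55088053-55088082, plus strand): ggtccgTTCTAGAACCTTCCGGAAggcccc
Hspd1 (chr1:55088053-55088082, minus strand): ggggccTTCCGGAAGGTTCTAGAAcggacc
Hspe1 and Hspd1 are read in opposite directions, and their lines are the same 30 bases on opposite strands. Their 3 matches overlap, so that at least 3 triplets alternate in a row, an arrangement found on either strand in 0.466% of all promoters. A match is a run of letters and does not show that a factor binds there.

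Before the results, 3 arrays stood apart from the rest. Th2 replicates 2 and 3 and Th17 replicate 4 lay at 37.5 to 55.8 on the first principal component of all genes (35.8% of the variance), and the other 7 arrays at -0.96 or below. Genes that mark T cells had a mean log2 level of 8.68 to 9.61 on the 10 arrays, and the mean of B cell markers was 4.29 or less and that of myeloid markers 4.33 or less on each. CD8 and NK cell markers had means of 4.25 to 5.14, and erythroid and platelet markers of 3.45 to 6.11. Means of basophil and mast cell markers were 6.85 (Th0 replicate 1), 5.26 (Th17 replicate 2), 5.41 (Th17 replicate 3) and 4.06 or lower on the remaining arrays. Such means hide single markers that lay higher, of which some are named here after their values were seen. The B cell marker Ighm was at 10.41 on Th17 replicate 1 and 9.68 on Th0 replicate 2. The myeloid marker S100a8 was at 7.16 on Th17 replicate 1. The basophil and mast cell marker Cpa3 was at 6.86 on Th0 replicate 3 and 6.20 on Th2 replicate 1. Values throughout are log2 expression after RMA normalization, on which a difference of 1 is a doubling. The median over all probe sets was 3.39 to 3.61 by array. The interquartile range ran from 1.95 (Th2 replicate 3) to 2.41 (Th2 replicate 1). It was 2.15 on Th2 replicate 2, 2.09 on Th17 replicate 4 and 2.08 on Th0 replicate 1. Its part in the chaperone values was not tested.

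The inducible HSP70 genes were high on 2 of the 3 Th2 arrays and low on the third. Hspa1b (probe set 17344126) was at 3.60, 7.71 and 5.64 on Th2 replicates 1, 2 and 3. It was at 3.90, 2.88 and 4.19 on Th0 replicates 1 to 3 and at 3.90, 3.23, 3.57 and 3.88 on Th17 replicates 1 to 4. Th2 replicate 2 thus read 3.53 log2 units above the highest of the 8 arrays other than Th2 replicates 2 and 3, and Th2 replicate 3 read 1.45 units above it. Set against the median of those 8 arrays, Th2 replicate 2 was higher by 3.98 for Hspa1b, rank 1 of 22180 genes by this difference. Th2 replicate 3 was higher by 1.90 (rank 33). Other measured chaperones ranked from 16 (Hspa1a) to 7488 (Hspa8) on Th2 replicate 2, and from 283 (Hspa1a) to 12914 (Hspe1) on Th2 replicate 3. Both arrays were singled out after their values were seen, so these ranks describe them and are no test.

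Hspa1a (probe set 17344132) encodes nearly the same protein from a neighbouring copy of the gene. It was at 3.47, 5.87 and 4.49 on the Th2 arrays, at 3.05, 3.04 and 3.39 on the Th0 arrays and at 3.67, 3.31, 3.21 and 3.64 on the Th17 arrays. The same pair of Th2 arrays was highest, by 2.21 and 0.83 over the best of the other 8, and Th2 replicate 1 fell among the Th17 values. On those 8 arrays Hspa1a (3.04 to 3.67) and Hspa1b (2.88 to 4.19) stayed near the median of all probe sets and are not shown to be above background, so no fold is drawn from these differences. Probes may not keep the near-identical copies apart, so the split between Hspa1a and Hspa1b is uncertain. A probe set that the table assigns to both genes was at 5.67 on Th2 replicate 2, at 4.16 on Th2 replicate 3 and between 3.43 and 3.89 on the others, the same order of the top arrays.

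Hsph1 (probe set 17455507), the nucleotide exchange factor, had the same highest arrays, Th2 replicates 2 and 3, at a higher signal. Its Th2 values were 6.89, 8.47 and 8.16, its Th0 values 7.14, 6.39 and 7.17, and its Th17 values 7.14, 7.15, 7.19 and 7.70. Th2 replicate 1 was again unlike the other Th2 arrays: it lay below all Th17 arrays and between the Th0 values. Th17 replicate 4, which also stood apart on the first component, was the third highest array for Hsph1 but not for Hspa1a or Hspa1b.

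**Figure D1:**
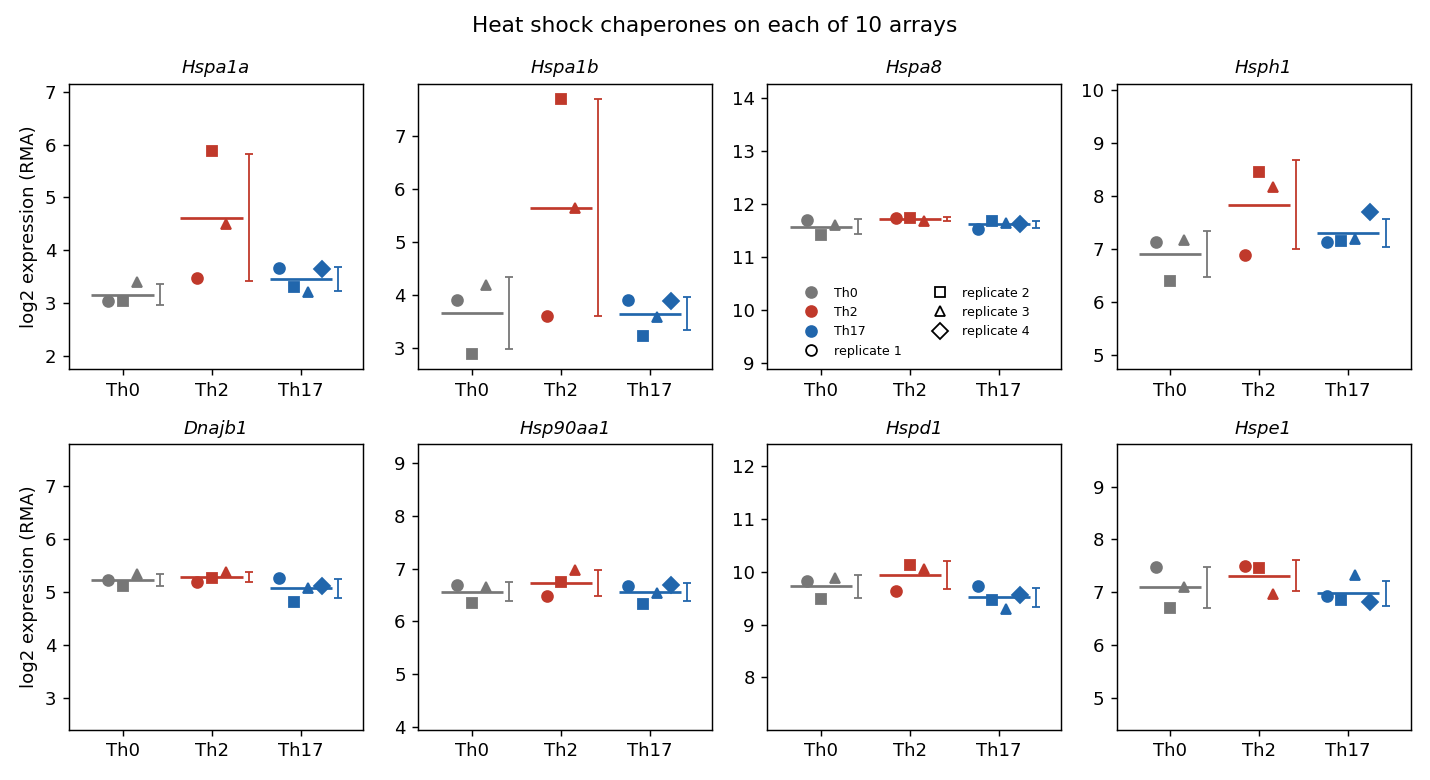
Log2 expression (RMA) of the 8 measured chaperones on each of the 10 arrays, by group (colour) and replicate (marker), with the group mean as a line and its SD as the bar beside it; every panel spans the same number of log2 units. Th2 replicates 2 and 3 lie at 7.71 and 5.64 for Hspa1b while Th2 replicate 1 lies at 3.60, and Hspa8, Dnajb1, Hsp90aa1, Hspd1 and Hspe1 each span less than 1 log2 unit.

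In Th2 against Th0, the comparison that sets IL-4 and the IFNγ antibody against stimulation alone, the group means of these 3 genes differed most, but none passed the test. Hspa1b averaged 5.65 ± 2.06 (SD, n = 3) in Th2 and 3.66 ± 0.69 (SD, n = 3) in Th0, means that lay 1.99 ± 0.78 (SE) apart (adjusted p = 0.768 by limma). Hspa1a averaged 4.61 ± 1.20 and 3.16 ± 0.20, a difference of 1.45 ± 0.45 (SE; adjusted p = 0.768). For Hsph1 the means were 7.84 ± 0.83 and 6.90 ± 0.44, a difference of 0.94 ± 0.37 (SE; adjusted p = 0.768). In bulk RNA, more cells with a transcript and more of it in each cell cannot be told apart.

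All 8 chaperones had a higher mean in Th2 than in Th0, as 47.7% of all genes had. The 8 were read on the same arrays, so their directions are not independent. Their median difference was 0.22 against -0.01 over all genes, and -0.0235 without the 3 arrays apart on the first component. By limma 0 of the 8 were called. Nor was any gene of the 22180 (0%). An unadjusted p under 0.05 was reached by 3 of the 8 (Hspa1a, Hspa1b and Hsph1, all higher in Th2) and by 6.34% of all genes in either direction. The Th2 and Th0 groups did not overlap for 1 of the 8, Hspa1a, and for 8.43% of all genes.

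These differences rest on Th2 replicates 2 and 3. Without Th2 replicate 1 the 3 genes were called in Th2 against Th0, Hspa1b at 3.02 (limma, adjusted p = 0.0272), Hspa1a at 2.02 (adjusted p = 0.0243) and Hsph1 at 1.42 (adjusted p = 0.0310). That setting also raised the genes called in all from 0 to 431. Th2 replicate 1 was the Th2 array with the lowest values of these genes. Leaving it out narrows the Th2 spread, so the calls are no separate support for a difference. Without the 3 arrays apart on the first component, which leaves Th2 replicate 1 as the lone Th2 array with the spread taken from the other groups, the differences were -0.0578 for Hspa1b, 0.32 for Hspa1a and -0.0065 for Hsph1. Leaving out Th2 replicate 2 alone gave 0.96, 0.82 and 0.63, none of them called.

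In Th17 against Th0 the chaperones showed no common direction. Hspa1b averaged 3.64 ± 0.31 (SD, n = 4) in Th17, a difference of -0.01 ± 0.73 (SE) from Th0, and Hspa1a differed by 0.30 ± 0.42 (SE). Hsph1, at 7.30 ± 0.27 in Th17, differed by 0.40 ± 0.35 (SE). Of the 8 genes 3 had higher and 5 lower means in Th17, where 46.8% of all genes were higher. The median was -0.01 against -0.02 over all genes. By limma 0 of the 8 were called, against 0.104% of all genes, and 0 of the 8 reached an unadjusted p under 0.05 (5.17% of all genes). The groups overlapped for every one of the 8 genes, while 7.57% of all genes did not overlap.

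Between the polarised populations, Th17 against Th2, all 8 means were lower in Th17, with a median of -0.37 against -0.01 over all genes. Of all genes, 48.4% were higher in Th17. This comparison uses the same Th2 arrays as the comparison with Th0. Hspa1b differed by -2.01 ± 0.73 (SE; limma, adjusted p = 0.672), Hspa1a by -1.16 ± 0.42 (SE; adjusted p = 0.673) and Hsph1 by -0.54 ± 0.35 (SE; adjusted p = 0.911). By limma 0 of the 8 were called, where 0.0766% of all genes were. An unadjusted p under 0.05 was reached by Hspa1a, Hspa1b and Hspd1, 3 of the 8, and by 6.25% of all genes. The groups overlapped for each of the 8, and did not for 5.6% of all genes. Without Th2 replicate 1, Hspa1b (-3.03, adjusted p = 0.0273) and Hspa1a (-1.73, adjusted p = 0.0344) were called, while the genes called in all went from 17 to 298. Weighting the arrays by how closely each followed its group mean in limma also gave a call to both (adjusted p = 0.0344 each) and to 330 genes in all. That fit weighted Th2 replicate 2 at 2.25 and Th2 replicates 1 and 3 at 0.433 and 0.516. Such weights come from the same expression values and are no separate measure of array quality. Leaving out Th2 replicate 1 likewise removes the Th2 array with the lowest Hspa1a and Hspa1b, so those calls are no separate support. The limma F test over the 3 groups called 0 of the 8, against 0.0631% of all genes (adjusted p = 0.712 for Hspa1a and 0.796 for Hspa1b). Those 2 genes were under an unadjusted p of 0.05 in it, as 6.2% of all genes were.

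**Figure D2:**
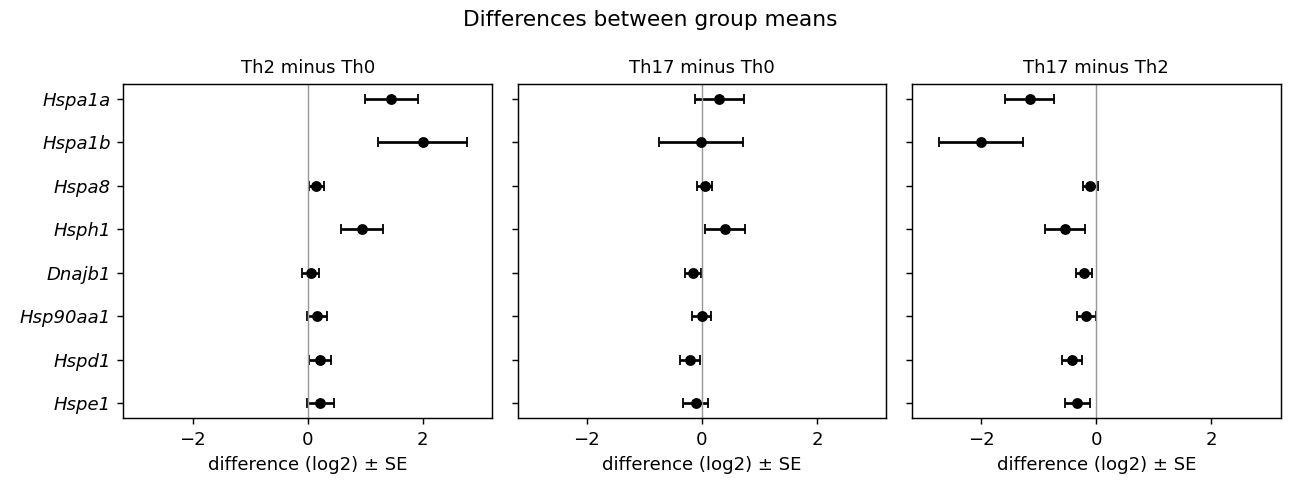
Differences between group means (log2, x axis) of the 8 chaperones in the 3 contrasts, with the SE of the moderated limma fit as bars. Hspa1b lies at 1.99 in Th2 minus Th0, at -0.01 in Th17 minus Th0 and at -2.01 in Th17 minus Th2, with an SE of 0.73 to 0.78, while the 5 genes other than Hspa1a, Hspa1b and Hsph1 lie within 0.42 of 0.

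Hspd1, the HSP60 barrel of the mitochondrial chaperonin, had the same pair of highest arrays within a narrower range. Its values on probe set 17223228 were 9.64, 10.12 and 10.06 on Th2 replicates 1 to 3, 9.82, 9.48 and 9.87 on the Th0 arrays and 9.73, 9.47, 9.30 and 9.56 on the Th17 arrays. Th2 replicates 2 and 3 were the highest arrays, 0.24 and 0.18 above the best of the others. The Hspd1 mean was 9.94 ± 0.26 (SD, n = 3) for Th2 arrays and 9.52 ± 0.18 (SD, n = 4) for Th17 arrays, a difference of -0.42 ± 0.17 (SE; limma, adjusted p = 0.739).

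Hspe1, the lid of the same chaperonin, did not follow its partner. On probe set 17212882 it was at 7.50, 7.47 and 6.97 on Th2 replicates 1 to 3, at 7.47, 6.70 and 7.10 on the Th0 arrays and at 6.92, 6.86, 7.33 and 6.82 on the Th17 arrays. Its highest array was Th2 replicate 1, on which Hspd1 was below its Th0 mean, and Th2 replicate 3, second highest for Hspd1, was lower by 0.53. The groups overlapped throughout, and Hspe1 differed by 0.22 ± 0.23 (SE) in Th2 against Th0 and by -0.33 ± 0.22 (SE) in Th17 against Th2 (adjusted p = 0.900 and 0.919).

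Hsp90aa1, the inducible cytosolic HSP90, had values of 6.47, 6.75 and 6.97 on Th2 replicates 1 to 3 (probe set 17284002). On the Th0 arrays it was at 6.69, 6.36 and 6.65 and on the Th17 arrays at 6.67, 6.33, 6.53 and 6.69. Th2 replicate 3 was highest here, and the lead of Th2 replicates 2 and 3 over the other arrays was 0.06 and 0.28. The differences were 0.17 ± 0.18 (SE) in Th2 against Th0 and -0.01 ± 0.165 (SE) in Th17 against Th0 (adjusted p = 0.902 and 0.999).

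Dnajb1, the J-domain protein that delivers substrates to HSP70 and is itself a known HSF1 target, was nearly level. Its values (probe set 17502954) were 5.18, 5.27 and 5.37 in Th2, 5.22, 5.11 and 5.34 in Th0 and 5.26, 4.81, 5.08 and 5.11 in Th17. The highest and lowest arrays differed by 0.56, against 4.83 for Hspa1b, and Th2 replicate 2 was the third highest, below Th0 replicate 3. The difference between Th2 and Th0 was 0.05 ± 0.15 (SE; adjusted p = 0.975). The probe set shared by Dnaja1, another J-domain gene, and Mir207 lay between 6.21 (Th17 replicate 2) and 6.77 (Th2 replicate 1), with Th2 replicates 2 and 3 at 6.35 and 6.36. No value is given to either gene from it.

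Hspa8, the constitutive HSP70, was the steadiest of the 8 on the probe set used (17548379). It was at 11.74, 11.74 and 11.68 in Th2, at 11.70, 11.41 and 11.60 in Th0 and at 11.53, 11.68, 11.64 and 11.62 in Th17. All arrays lay within 0.33 of each other, and no contrast exceeded 0.15 ± 0.14 (SE; Th2 against Th0, adjusted p = 0.879). Its signal was the highest of the 8 probe sets used, which does not compare transcript levels, since probe sets differ in their response.

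The 4 probe sets with the single symbol Hspa8 disagreed on 1 array. Th0 replicate 1 was the lowest array on probe sets 17434475 (9.60, the others 10.75 to 11.26) and 17516365 (9.02, the others 9.57 to 10.00), yet the third highest on the probe set used. Probe set 17548744 gave nearly the values of the one used, from 11.39 to 11.73. With the mean of the 4 in place of the 1 used, Hspa8 differed by 0.30 between Th2 and Th0 and by 0.14 between Th17 and Th0, still without a call. A further probe set, which the table shares between Hspa8 and Snord14e, a small nucleolar RNA gene, was highest on Th2 replicates 2 and 3 (9.69 and 9.38, the others 7.81 to 8.81).

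**Figure D3:**
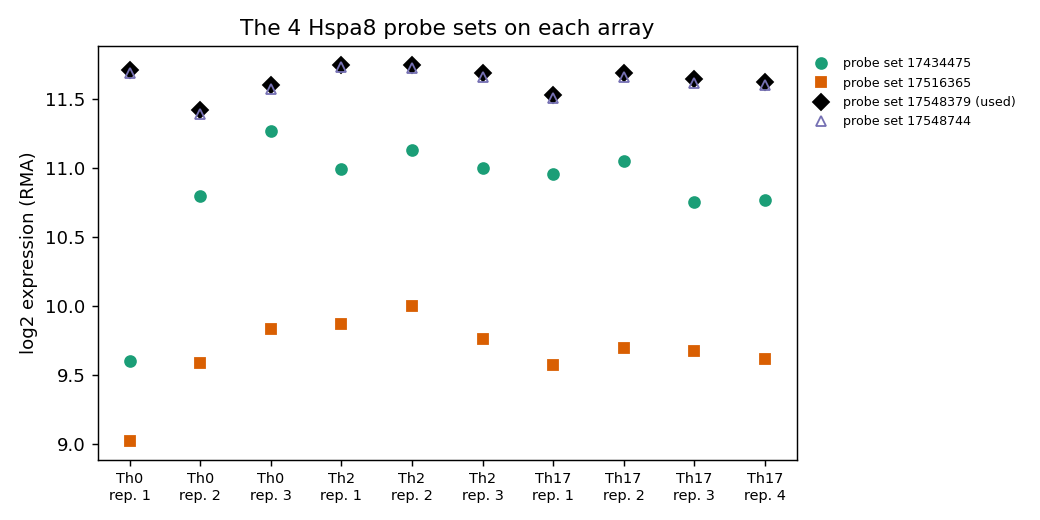
Log2 expression (RMA) on each array for the 4 probe sets that the table gives to Hspa8 alone; the diamond is the probe set used. On Th0 replicate 1 probe sets 17434475 and 17516365 drop to 9.60 and 9.02, their lowest values, while the probe set used stays at 11.70.

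By array, Th2 replicates 2 and 3 were both above the other 8 for 5 of the 8 chaperones (Hspa1a, Hspa1b, Hsph1, Hsp90aa1 and Hspd1), and for 5.41% of all genes. Th2 replicate 2 led the same 8 arrays by over 1 log2 unit for 2 of the 8, Hspa1a and Hspa1b, and for 0.573% of all genes. For 1 of the 8, Hspa1b, both arrays led by over 1 log2 unit, as they did for 0.0857% of all genes. The pair was singled out because of these values and its place on the first component, so this count describes 2 arrays and is no test of a group. At the low end, Th0 replicate 2 had the lowest value for 5 of the 8 chaperones (Hspa1a, Hspa1b, Hspa8, Hsph1 and Hspe1). Averaged over the 8 genes, each centred on its own mean, the arrays ran from -0.52 on Th0 replicate 2 to 0.98 on Th2 replicate 2, with Th2 replicate 3 at 0.47 and the other 7 between -0.34 and -0.03. The genes were not scaled, so Hspa1a, Hspa1b and Hsph1, with the widest ranges, weigh most in this average.

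Other genes moved with the same arrays. T cell stimulation and stress switch on immediate early genes within the first hours. Of 16 such genes, 9 had both Th2 replicates 2 and 3 above the other 8 arrays (5.41% of all genes did). Their mean was 7.91 and 7.31 there, 6.33 on Th2 replicate 1 and between 6.21 and 7.11 on the Th0 and Th17 arrays. Of 25 cell cycle genes 12 had both arrays below the other 8 (6.45% of all genes did), with means of 6.27 and 6.36 there, 7.83 on Th2 replicate 1, 7.28 to 7.80 in Th0 and 6.43 to 7.41 in Th17. Among these were Cenpf (4.66 and 4.79, the others 5.04 to 6.65) and Cenpe (5.66 and 5.64, the others 5.68 to 7.58), both mitotic kinetochore proteins, and the cyclin Ccnb2 (4.59 and 5.47, the others 5.83 to 8.01). The mean of 10 T cell identity genes was 8.71 and 8.72 on the pair and 9.38 on Th2 replicate 1, but it was lowest, 8.68, on Th17 replicate 4, where Hspa1b was not high. Basophil and mast cell markers were at 3.26 and 3.33 on the pair and as low on Th0 replicate 2 (3.31) and Th17 replicate 4 (3.33). The part of these gene lists in the chaperone values was not tested.

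**Figure D4:**
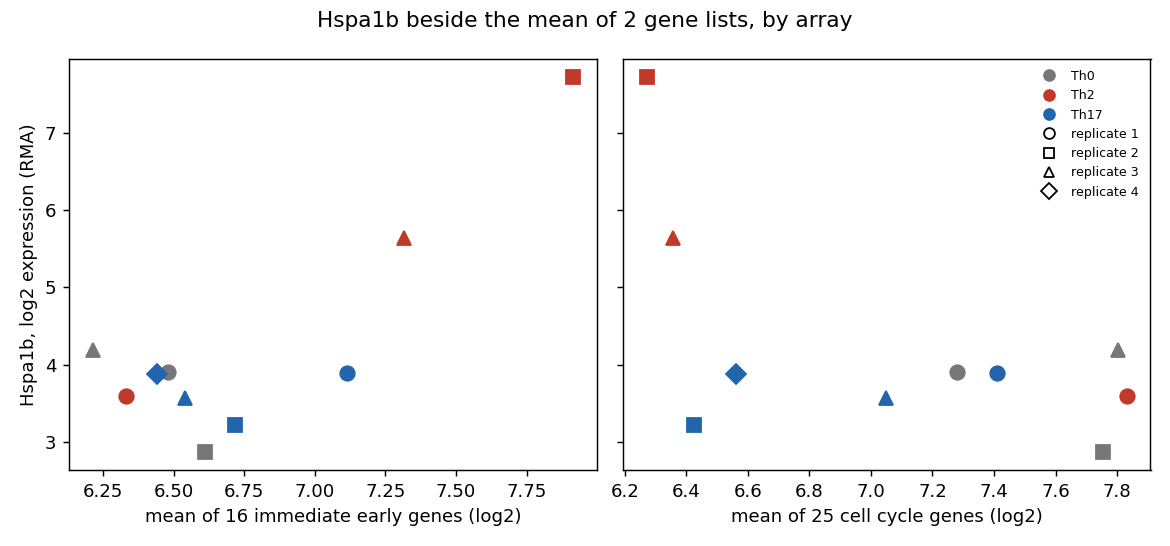
Hspa1b (log2 expression, y axis) on each array against the mean log2 level of 16 immediate early genes (left) and of 25 cell cycle genes (right), coloured by group with a marker for each replicate. Th2 replicates 2 and 3 lie at the top, at the highest immediate early means (7.91 and 7.31) and the lowest cell cycle means (6.27 and 6.36), while Th17 replicates 2 and 4 have cell cycle means of 6.43 and 6.56 with Hspa1b at 3.23 and 3.88.

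The remaining chaperone machinery showed 0 called genes in any contrast (limma, lists of 4 to 24 measured genes). Their counts at an unadjusted p under 0.05 follow, to be read against 6.34% of all genes in Th2 against Th0, 5.17% in Th17 against Th0 and 6.25% in Th17 against Th2. Of 18 further heat-inducible chaperones and co-chaperones, 3 reached it in Th2 against Th0, 1 in Th17 against Th0 and 2 in Th17 against Th2. Both Th2 replicates 2 and 3 were on top for 1 of the 18, Ier5, and for 5.41% of all genes. Both were lowest for 1 of the 18, Mrpl18, and for 6.45% of all genes. Ier5, an HSF1 target that modulates HSF1, was at 5.77, 7.82 and 6.91 on Th2 replicates 1 to 3, between 5.38 and 5.88 in Th0 and between 5.73 and 6.33 in Th17 (Th2 minus Th0 1.25 ± 0.40 SE, adjusted p = 0.768). Mrpl18, a mitochondrial ribosomal protein with a stress-specific cytosolic form, went the other way, at 7.63, 6.32 and 6.09 in Th2 and 7.49 to 7.79 in Th0. Hspa4l, an HSP110 relative of Hsph1, instead had its highest value on Th17 replicate 4 (7.28) and differed by 0.87 ± 0.31 (SE) in Th17 against Th0 (adjusted p = 0.814).

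Hsf1 itself was not analysed here. Of the other listed heat shock factors and their binding protein, 4 genes (Hsf2, Hsf4, Hsf5 and Hsbp1), 0 reached an unadjusted p under 0.05 in any contrast. Hsf2 was at 6.57 on Th0 replicate 1 but at 5.46 and 5.36 on the other Th0 arrays, and at 5.92, 6.70 and 6.48 in Th2. Hsbp1, which binds heat shock factor trimers, was lowest on Th2 replicates 2 and 3 (8.79 and 8.58, the others 8.82 to 9.44). Of all genes, 6.45% were lowest on both. Hsf4 stayed between 3.14 and 3.78 on the 10 arrays.

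Of 24 partner proteins of HSP70 and HSP90, 12 were higher and 12 lower in Th2 than in Th0 (median 0.01), and 1 had an unadjusted p under 0.05, as did 2 in Th17 against Th0 and 1 in Th17 against Th2. Pih1d1, a subunit of the HSP90 co-chaperone R2TP, differed by -0.59 ± 0.20 (SE) in Th2 against Th0 (adjusted p = 0.768). Hspbp1, a nucleotide exchange factor of HSP70, differed by -0.51 ± 0.16 (SE) in Th17 against Th2 (adjusted p = 0.606), and Unc45a, a co-chaperone of HSP90, by 0.42 ± 0.17 (SE) in Th17 against Th0 (adjusted p = 0.925).

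Among 14 mitochondrial chaperones and proteases, 2 reached an unadjusted p under 0.05 in Th2 against Th0, 0 in Th17 against Th0 and 1 in Th17 against Th2. Hspa9, the mitochondrial HSP70, was like Hspd1 highest on Th2 replicates 2 and 3, at 10.09 and 9.89 with the other arrays between 8.77 and 9.65. It was the 1 of the 14 with both arrays on top, as 5.41% of all genes had. The protease Htra2 was the 1 with both lowest (6.45% of all genes), at 5.09 and 5.03 with the others between 5.87 and 6.83. On the same 2 arrays the protease subunit Clpx was at 6.05 and 6.09, within its range of 5.61 to 7.06.

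The cytosolic chaperonin TRiC and its helper prefoldin, 13 genes, had 10 higher and 3 lower in Th2 than in Th0 (median 0.14), and 2 higher and 11 lower in Th17 than in Th2 (median -0.19). Of these 13 genes 1, 0 and 0 had an unadjusted p under 0.05 in Th2 against Th0, Th17 against Th0 and Th17 against Th2. Pfdn6 differed by -0.38 ± 0.16 (SE), Cct4 by 0.41 ± 0.21 (SE) and Cct7 by -0.05 ± 0.16 (SE) in Th2 against Th0. In the endoplasmic reticulum, Hspa5 (BiP, the HSP70 of that compartment) was at 8.12, 9.19 and 9.06 in Th2 and 7.74 to 8.47 in Th0, and its J-domain partner Dnajb9 at 7.07, 8.13 and 7.68 and 6.02 to 7.21. Both were highest on Th2 replicates 2 and 3, while 3 others of the 14 genes were lowest there: Sdf2l1, a cochaperone of the same compartment (6.26 and 6.33, the others 6.59 to 7.68), and, named after their values were seen, Dnajc3 (7.56 and 7.67) and Pdia3 (7.51 and 7.71). Over all genes, both arrays were on top for 5.41% and lowest for 6.45%. In Th2 against Th0, 5 of the 14 were higher and 9 lower (median -0.05). Of these 14 genes 2, 1 and 0 had an unadjusted p under 0.05 in the same order of contrasts.

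Of the immediate early genes, Jun, a subunit of AP-1, was the 1 called: it rose by 2.56 ± 0.37 (SE; limma, adjusted p = 0.0381) in Th17 against Th0. The call did not hold without any 1 of the Th0 or Th17 arrays or without Th2 replicate 3, and over all settings tried the adjusted p ran from 0.00104 to 0.918, at differences of 2.47 to 2.69. Jun did not have Th2 replicates 2 and 3 as its highest arrays. It lay between 6.32 and 6.94 in Th17, at 6.02 and 5.42 on Th2 replicates 2 and 3 and at 4.33 or less on the other 4 arrays.

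How far the chaperones varied together was asked over all 28 pairs of the 8 genes. Over the 10 arrays 10 pairs passed a permutation test of Pearson's r (adjusted p under 0.05 by Benjamini-Hochberg), and 4 by Spearman's rho. Since 3 arrays form a group of their own, no pooled r is given for a pair, and over the other 7 arrays 0 of the 28 pairs passed (exact permutation test, smallest adjusted p = 0.128; 4 pairs had an unadjusted p under 0.05, and 0 passed by rho). There r ran from -0.17 to 0.91, with 26 of 28 above 0. Hspa1b and Hsp90aa1 had the highest, r = 0.91 and rho = 0.82 (exact permutation, adjusted p = 0.128 and 0.239, n = 7), and r = 0.98 without the 2 arrays farthest from the median of Hspa1b. The near-identical Hspa1a and Hspa1b had r = 0.45 and rho = 0.43 over those 7 arrays (exact permutation, adjusted p = 0.675 and 0.900), and r = -0.07 without the farthest 2. Hspd1 and Hspe1, whose starts flank the shared 30 bases shown above, had r = 0.21 and rho = 0.25 (exact permutation, adjusted p = 0.826 and 0.953), and r = 0.67 without the farthest 2.

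Genes most like the chaperone average were sought among 3661 others with a mean of at least 6. The measure was Pearson's r over the 10 arrays with the average of the 8 centred genes. Those 8 were not scaled, so the average follows mostly Hspa1b (range 4.83), Hspa1a (2.84) and Hsph1 (2.07). Each of the other 5 spanned less than 1 log2 unit. Here r serves only to rank genes, since it is pooled over the 3 arrays apart and the other 7. The 10 highest were Mrps18b (r = 0.97), Ndufaf4 (0.965), Pno1 (0.963), Znhit6, Ctps, Gnl3, Rel, Aatf, Snhg15 and Tmem248 (0.94 for the last). All 10 had Th2 replicates 2 and 3 as their highest arrays, as did the average they were picked to resemble, so this restates the choice. Over the 7 arrays without those apart, their r ran from 0.46 (Ctps) to 0.88 (Tmem248). Pno1, Znhit6, Gnl3 and Aatf are known for ribosome assembly, Ctps makes CTP, and Rel is an NF-κB subunit. The share of such genes among the 3661 compared was not counted, so no theme is drawn from these roles. In Th2 against Th0 they differed by 0.23 (Mrps18b) to 1.14 (Snhg15), none past the test.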

How the data were processed

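RNA of 10 cultures was measured on 1 array each, and groups and replicate numbers come from the sample titles (1 description carries another number for Th2 replicate 3). The deposited log2 values come from RMA (background correction, quantile normalization, probe set summary), run by the authors in Affymetrix Expression Console 1.3.0.187 per the submitters' processing notes. The sources used here name no genome build, and promoter positions are those of RefSeq's GRCm38.p6 table. Of 41345 probe sets, 23521 had 1 symbol (23328 matched to RefSeq by Entrez ID), 1814 several, and 16010 were not listed. The one with the highest mean stood for a gene.

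Differences were tested with limma 3.58.1 (R 4.3.3) on all 10 arrays (7 residual degrees of freedom), two-sided, Benjamini-Hochberg adjusted over 22180 genes, and called at an adjusted p under 0.05. The number of arrays limits precision. The procedure was tested on simulated data. Pairs used 100000 permutations, or all of them for 7 arrays. The members and lists were chosen with earlier results of these data known. Named genes are all chaperones and the called members of each pathway list or else its 3 with the smallest F test p (the cell type marker lists aside). The 10 genes most like the chaperone average are also named, leaving out gene models, small RNA genes and receptor segments. Alternatives left out arrays, blocked on the replicate number, and changed normalization, filter, probe set rule and variance model.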

Additional observations from a re-analysis of the deposited data

Results flagged for a closer look

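Hsph1 on Th17 replicate 4 stood apart from the other Th17 arrays. Its 7.70 was separated from the next value, 7.19, by 0.900 of the range of the 4 arrays. This is past Dixon's limit for 4 values, a limit that chance passes in about 1 of 20 groups. Hsph1 had the largest such ratio of the 8 chaperones looked at, followed by Hspe1 at 0.808. At least 1 pass among 8 genes is more frequent by chance than that rate. The probe set shared by Hspa1a and Hspa1b, which no comparison used, read 5.67 on Th2 replicate 2, over 1 log2 unit above the highest Th0 array (3.89).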

How the results depend on the processing

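The 8 chaperones in 3 contrasts gave 24 differences, recomputed as 474 alternative values: 448 kept their direction and their side of the threshold, 7 gained a call and 19 changed sign, 10 of these with 1 array left out. Chaperones called ranged over the settings that leave out 1 array from 0 to 3 in Th2 against Th0 (0 with all arrays), from 0 to 2 in Th17 against Th2 and in the F test, and were 0 in each for Th17 against Th0. Array weights gave 2 in Th17 against Th2. Without the 3 arrays apart, signs turned in Th2 against Th0 for Hspa1b (-0.0578), Hsph1 (-0.0065), Dnajb1 (-0.0405), Hsp90aa1 (-0.0917) and Hspd1 (-0.0877), and in Th17 against Th2 for Hsph1 (0.27) and Hsp90aa1 (0.04). Without the 3 arrays high in basophil markers, Th17 against Th0 turned for Hspa1b (0.35) and Hsp90aa1 (0.18). With 1 array left out, Th17 against Th0 ran from -0.40 to 0.25 for Hspa1b, -0.113 to 0.0662 for Hsp90aa1, -0.0331 to 0.112 for Hspa8 and -0.301 to 0.0833 for Hspe1, and Dnajb1 in Th2 against Th0 from -0.0044 to 0.11. Pairs past the test went from 10 to 0 over 7 arrays, 0 without the 2 farthest, and 9 on deviations from the group means, which keep the 3 arrays apart. A mean of at least 5 kept 6 chaperones, so 3 rather than 5 had Th2 replicates 2 and 3 on top. Genes called in all were 0, 23, 17 and 14 (F test), and ran without 1 array from 0 to 431, 2 to 36, 3 to 298 and 3 to 310, and otherwise from 0 to 2, 3 to 60, 6 to 330 and 5 to 133. The cause was not tested. The replicate block left 0 chaperones called and gave 0, 8, 11 and 9 genes; same-numbered arrays deviated with r of -0.31 to 0.296, over 0.1 for 1 of 9 pairs, so the numbers were not taken to pair the cultures. Values near the median of all probe sets limit what can be read from Hspa1a and Hspa1b.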
